A study of Mus musculus with 20 samples.

Results

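Fibroadipogenic progenitors (FAPs), the stromal cells of skeletal muscle that can turn into fibroblasts and fat cells, were compared between mice with a pancreatic tumour and sham-operated mice 26 days after surgery. The comparison holds 7 of the 20 libraries of the series, namely 4 controls and 3 KPC libraries, and every gene of the day 26 table. Male C57BL/6J mice of both groups had surgery. The KPC mice received 2000000 cells of the mouse pancreatic tumour line KPCY in a volume of 50 µL, placed in the pancreas, and the controls received sham surgery only. The age of the mice is not given in the sources used here. Hindlimb cells were sorted as living, nucleated, SCA-1 positive cells without CD31 (endothelium), CD45 (leukocytes) or α7-integrin (muscle stem cells), and their mRNA was sequenced. The labels call the libraries biological replicates, without saying whether a library is 1 animal or a pool, so p-values measure the spread between these libraries. The libraries are called control 1 to 4 and KPC 1 to 3 after their replicate numbers. Their codes begin with 227 (controls 1 to 3, KPC 1 and KPC 2), 235 (control 4) and 226 (KPC 3), and what these numbers stand for is not given in the sources used here.

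FAPs lie between the muscle fibres, lay down collagen and other matrix, and feed growth factors to muscle stem cells. In cachexia, the wasting that accompanies many tumours, the body is exposed to inflammatory cytokines of the interleukin-6 (IL-6) family, which act through JAK kinases and the transcription factor STAT3, and to raised glucocorticoids, which act through the receptor encoded by Nr3c1. Sterol synthesis is controlled separately, by SREBP2, which switches on the whole pathway when cells are short of cholesterol. Within the FAP population, cells with Dpp4 and Pi16 and cells with Cxcl14 and Smoc2 are commonly told apart as different states.

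Total counts were 16.8 to 25.7 megacounts per library. The KPC libraries were not all alike. Over log2 CPM, KPC 1 and KPC 2 correlated at 0.939 with each other and at 0.844 to 0.891 with the controls. KPC 3 correlated at 0.969 to 0.978 with the controls and at 0.877 and 0.906 with KPC 1 and KPC 2. On the first principal component of log2 CPM, which carried 68.7% of the variance, the controls lay between -47.2 and -34.1, KPC 3 at -21.7, KPC 2 at 91.9 and KPC 1 at 101. CPM are counts relative to library size after TMM scaling, which assumes that most genes do not differ between libraries. The second component (15.3%) separated KPC 1 (52.4) from KPC 2 (-55.0). A distance of more than 1 log2 unit from the control mean was found for 30.5% of 13157 genes in KPC 1, 32.5% in KPC 2, 5.31% in KPC 3 and 0.752% to 1.73% in the single controls. KPC 3 carries the only library code beginning with 226, so the code and its distance from the other KPC libraries cannot be told apart.

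**Figure D1:**
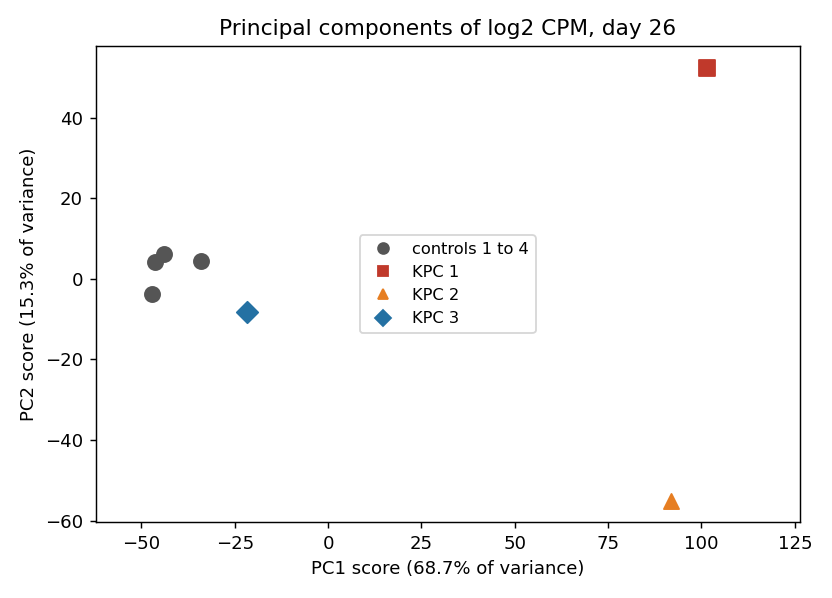
Scores of the 7 day 26 libraries on the first and second principal components of log2 CPM, 1 point per library. KPC 1 and KPC 2 lie at 101 and 91.9 on the first component, and KPC 3, at -21.7, lies next to the 4 controls.

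The sort genes were checked next. Ly6a, which encodes SCA-1, lay at 1143, 1011, 1088 and 1417 CPM in controls 1 to 4 and at 585, 503 and 1195 CPM in KPC 1 to 3. It was lower in KPC 1 and KPC 2 than in any control, while KPC 3 lay among the controls. Pdgfra, the receptor gene that marks FAPs, lay at 1241 to 1382 CPM in controls and at 1196, 1367 and 1405 CPM in KPC (log2 fold change 0.00 ± 0.19, SE). Pecam1, the gene of CD31, lay at 12.7, 15.8, 4.45 and 7.06 CPM in controls and at 241, 26.4 and 12.5 CPM in KPC. Ptprc, the gene of CD45, reached 5.74, 0.113 and 0.502 CPM in KPC against 0.297 to 0.781 CPM in controls. Itga7, the gene of α7-integrin, lay at 2.15 to 3.68 CPM in controls and 18.7, 4.56 and 3.11 CPM in KPC, and it shares exon sequence with Mettl7b. KPC 1 was the highest library for all 3 of the genes whose products the sort excludes.

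KPC 1 also stood apart in the marker lists of other cell types. The summed CPM of 15 macrophage and monocyte markers was 521 in KPC 1, 48.4 in KPC 2 and 28.8 in KPC 3, against 20.2 to 30.2 in controls. For 14 endothelial markers the sums were 1436, 563 and 881 CPM against 819 to 1014, for 9 mural markers 544, 86.2 and 232 against 174 to 233.9, and for 14 myofibre markers 354, 152 and 105 against 47.2 to 135. Among fat cell genes below the filter on low counts, Cfd, Adipoq, Cidec and Retn were highest in KPC 1 and next highest in KPC 2. Plin1 had 17, 5 and 11 counts in KPC 1 to 3 and 9 in control 3. Adrb3 had 49, 0 and 0 counts in KPC 1 to 3 and 1 in control 3, and Lep had 0 in every library. Cfd, the gene of adipsin, had 6563 counts in KPC 1, 284 in KPC 2, 5 in KPC 3 and at most 2 in a control. Adipoq had 726, 8 and 0 counts in KPC and at most 7 in a control, and Cidec 786, 40 and 1 against at most 1. The epithelial keratin gene Krt8 had 109 counts in KPC 1 and 0 in each of the other libraries. No lymphocyte marker passed the filter. KPC 2 lay below KPC 1 for each of these lists and genes except Lep, so its values are given below beside those of KPC 1.

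**Figure D2:**
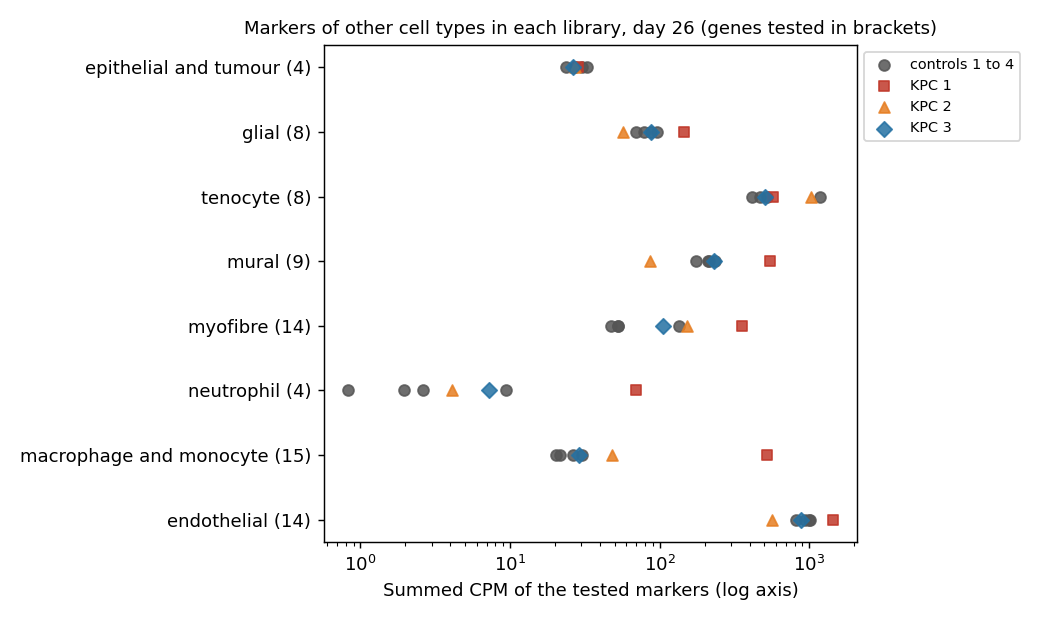
Summed CPM (log axis) of the tested markers of 8 other cell types, 1 point per library, with the number of genes in brackets. KPC 1 lies above every other library for macrophage, neutrophil, endothelial, mural, myofibre and glial markers. KPC 2 lies below the controls for endothelial, mural and glial markers.

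In the test of all 7 libraries, edgeR's quasi-likelihood F test called 0 of 13157 genes (0%) at an adjusted p under 0.05, and the smallest adjusted p was 0.0592. An unadjusted p under 0.05 was found for 4508 genes (34.3%), of which 2674 (20.3% of all) were higher and 1834 (13.9%) lower in KPC. All 3 KPC libraries lay above all 4 controls for 1906 genes (14.5%) and below them for 1905 (14.5%). The count of 0 belongs to this tool and this set of libraries. DESeq2 called 1760 genes higher (11.9% of 14807) and 949 lower (6.41%), limma-voom called 0, and limma-voom with quality weights, which gave KPC 3 the lowest weight of 0.146, called 4519 (2329 higher, 2190 lower). With the code-227 libraries alone (3 controls, KPC 1 and KPC 2), edgeR called 3245 of 13342 genes higher (24.3%) and 3042 lower (22.8%). That fit leaves out KPC 3, the KPC library nearest to the controls, so it describes the response of the other KPC libraries and cannot stand for all 3. These shares of all genes are the background against which the counts of list members below are read. Below, "rose" and "fell" refer to calls in the code-227 fit, and "higher" and "lower" to the 7 libraries, for which log2 fold changes are given ± SE. Where values of both groups stand side by side, those of the controls come first and those of KPC 1, KPC 2 and KPC 3 follow in that order. Without KPC 1, the library with the markers of other cells, 15.3% of 13326 genes were higher and 8.28% lower at an unadjusted p under 0.05.

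The 8 higher and 8 lower genes with the smallest p, no overlap between groups and a mean log2 CPM of at least 1 are described first. Other genes named below come from the gene lists, and many of them were named after their values were seen. Among the higher genes were Osmr, the receptor of oncostatin M, Tsc22d3, which encodes the glucocorticoid-induced protein GILZ, Dio3, whose enzyme inactivates thyroid hormone, and Agt, the gene of angiotensinogen. Dio3 lay at 4.10, 3.17, 3.87 and 2.95 CPM in controls and 12.8, 13.9 and 11.1 CPM in KPC (1.84 ± 0.22). Agt lay at 8.49 to 14.4 CPM in controls and 36.6, 42.7 and 29.9 CPM in KPC (1.66 ± 0.21). For Dio3 and Agt, the lowest KPC library lay at more than the highest control by a wide margin, and KPC 3 came close to the others. The other higher genes were Enc1 (1.72 ± 0.19), Lppr3 (3.90 ± 0.48), the orphan receptor gene Gpr146 (2.19 ± 0.30) and Nrbp2 (1.02 ± 0.15). Among the lower genes, Hmgcs1 (-1.96 ± 0.28) and Stard4 (-1.52 ± 0.23) serve cholesterol synthesis and transport, and Elovl6 (-1.26 ± 0.20) and Fads2 (-1.20 ± 0.19) lengthen and desaturate fatty acids. The rest were the LIM protein gene Csrp2 (-1.13 ± 0.15), Flrt3 (-1.33 ± 0.20), Fopnl (-0.78 ± 0.13) and Prc1 (-2.79 ± 0.45), which is needed for cell division, shares exon sequence with Rccd1 and lay below 1 CPM in every KPC library. The unadjusted p of these 16 genes ran from 1.22e-05 (Osmr) to 0.000248 (Fopnl), and the adjusted p was 0.0592 for all.

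Genes of the IL-6 family and its STAT3 response were mostly higher in KPC. Of 25 tested genes of this list, 18 (72.0%) were higher and 1 was lower at an unadjusted p under 0.05, against 20.3% and 13.9% of all genes. The median log2 fold change was 1.80, against -0.003 for all genes, and the median distance from the control mean was 2.09 in KPC 1, 2.04 in KPC 2 and 0.81 in KPC 3. In the code-227 fit 17 rose and 0 fell, DESeq2 called 15 of 24 higher in all 7 libraries, and the count without KPC 1 was 16, each with an unadjusted p under 0.05 upward.

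Among the receptor genes, Osmr (chromosome 15, 6813577 to 6874969, mm10) lay at 83.2, 94.7, 82.2 and 77.6 CPM in controls 1 to 4 and 287, 396 and 230.5 CPM in KPC 1 to 3, 3.40-, 4.69- and 2.73-fold the control mean (log2 1.85 ± 0.20). Lifr, the receptor of leukaemia inhibitory factor, lay at 168, 188, 167 and 100.5 CPM and 647, 1349 and 319 CPM (2.31 ± 0.45, edgeR adjusted p = 0.0592). The groups did not overlap for either gene. Il6ra, the receptor of IL-6 itself, lay at 35.4 to 52.3 CPM in controls and 102, 163 and 69.7 CPM in KPC (1.47 ± 0.28). The shared chain gene Il6st lay at 545 to 637 CPM in controls and 691, 579 and 665 CPM in KPC, and Jak1 at 299 to 328 and 336, 273 and 290.3 CPM, so both overlapped between groups.

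Among the ligands, Il6 lay at 24.6, 39.3, 12.6 and 12.7 CPM in controls and 127, 60.6 and 18.0 CPM in KPC (1.62 ± 0.63), with KPC 3 within the control range. Lif was lower (-0.51 ± 0.20, 34.0 to 37.4 CPM in controls and 33.0, 17.9 and 23.1 CPM in KPC). Downstream, Stat3 lay at 174, 169.7, 148 and 148 CPM in controls and 677, 604 and 266 CPM in KPC (1.69 ± 0.30, edgeR adjusted p = 0.0592). Socs3, the feedback inhibitor of the receptor complex, lay at 1661, 1548, 1157 and 960.0 CPM in controls and 7581, 5590.3 and 1587 CPM in KPC (1.89 ± 0.49). Socs3 was 5.69- and 4.198-fold the control mean in KPC 1 and KPC 2, and KPC 3 lay inside the control range. The kinase gene Pim1, a STAT3 target, lay at 25.3 to 42.7 CPM in controls and 427, 349 and 47.6 CPM in KPC (3.03 ± 0.62), and the transcription factor genes Cebpb (2.06 ± 0.30) and Cebpd (1.80 ± 0.36) did not overlap between groups either.

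The promoter of Socs3 is shown because the list is built around STAT3 and this window holds a match to the palindrome that STAT factors bind. The window runs from 250 bases before to 50 after the gene's start (RefSeq, GRCm38.p6, chr11:117969317-117969616, minus strand), and capitals mark the match to TTCNNNGAA. Motifs were searched on both strands here and below.
Socs3: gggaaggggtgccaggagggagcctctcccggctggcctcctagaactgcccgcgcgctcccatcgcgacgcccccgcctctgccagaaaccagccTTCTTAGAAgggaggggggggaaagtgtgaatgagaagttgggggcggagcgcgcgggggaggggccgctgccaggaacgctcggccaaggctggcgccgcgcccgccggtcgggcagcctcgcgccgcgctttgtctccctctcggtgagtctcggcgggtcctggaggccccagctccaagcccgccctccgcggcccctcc
Of 22 list genes with a promoter in the reference table, 3 (13.6%) held TTCNNNGAA in this window, as did 8.3% of 32851 promoters.

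Secreted acute phase genes were highest in KPC 1. Serpina3n, a protease inhibitor gene, lay at 118, 96.1, 97.5 and 221 CPM in controls and 1717, 1373 and 344 CPM in KPC (3.10 ± 0.55). Lrg1 lay at 0.14 to 0.488 CPM in controls and 96.6, 14.2 and 5.42 CPM in KPC (6.66 ± 1.06). Lcn2, the gene of lipocalin 2, lay at 1.85 to 3.60 and 98.4, 13.0 and 6.87 CPM, Hp, the gene of haptoglobin, at 0.83 to 2.32 and 144, 4.34 and 4.26 CPM, and Saa1 at 0.146 to 1.08 and 109, 8.17 and 1.05 CPM. For these 3 genes KPC 1 exceeded KPC 2 by many times, as it did for the macrophage marker Lyz2 (127, 6.19 and 6.37 CPM in KPC, 3.25 to 7.99 in controls). The part of other cells in them was not tested. Saa1 has close copies, and its counts are uncertain for that reason. For Serpina3n, KPC 2 was 10.3-fold and KPC 1 12.9-fold the control mean.

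Genes of the glucocorticoid response were the list with the largest share of higher genes among the 32 lists of cell programs. The lists share genes. Mt1, Mt2, Per1, Cebpd, Lcn2, Dusp1, Cdkn1a and Pdk4, among others, count in this list and in another one. Of 22 tested genes, 19 (86.4%) were higher and 1 lower at an unadjusted p under 0.05, 19 lay above all controls in all 3 KPC libraries, and the median log2 fold change was 1.87. The medians by library were 2.11, 2.30 and 0.98 log2 units in KPC 1 to 3. DESeq2 called 19 of 22 higher and 1 lower, and 20 were higher without KPC 1.

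Tsc22d3 (chromosome X, 140539528 to 140600659) lay at 203, 235, 249 and 229 CPM in controls and 584, 1083 and 663 CPM in KPC (1.76 ± 0.24, edgeR adjusted p = 0.0592), with KPC 3 above KPC 1. Zbtb16, a transcription factor gene, lay at 55.3, 92.7, 92.3 and 85.6 CPM and 752, 1140.5 and 260.3 CPM (3.14 ± 0.46). Fkbp5, whose product dampens the receptor, lay at 76.0 to 112 CPM in controls and 436, 492 and 169 CPM in KPC (1.95 ± 0.35). In each of these genes KPC 2 was the highest library. Klf15, a metabolic transcription factor gene, lay at 8.08 to 10.3 CPM in controls and 133, 199 and 27.9 CPM in KPC (3.63 ± 0.55), and the kinase genes Map3k6 (2.67 ± 0.40) and Sgk1 (2.39 ± 0.52) did not overlap between groups. Glul, the gene of glutamine synthetase, lay at 298 to 377 and 1697, 1761 and 534 CPM (2.02 ± 0.38). Pdk4, the kinase gene that restrains glucose oxidation, lay at 14.5 to 20.8 and 161, 327 and 31.6 CPM (3.33 ± 0.63). The receptor gene Nr3c1 was the lower member, at 218, 253, 218 and 187 CPM in controls and 104, 129.9 and 179 CPM in KPC (-0.67 ± 0.21). Hsd11b1, whose enzyme regenerates active glucocorticoid inside the cell, lay at 256 to 325 CPM in controls and 511, 844 and 356 CPM in KPC (0.98 ± 0.28).

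The metallothioneins Mt1 and Mt2, small zinc-binding proteins that respond to glucocorticoids, IL-6 and zinc, did not overlap between groups. Mt1 lay at 383, 376, 285 and 242 CPM in controls and 4219, 2567 and 771 CPM in KPC (2.97 ± 0.51, edgeR adjusted p = 0.0592), and Mt2 at 689, 710.2, 516 and 459 and 5002, 3089 and 1219 CPM (2.39 ± 0.45). Slc30a1, the zinc exporter gene, was higher (1.22 ± 0.29), the importer gene Slc39a14 lay at 48.0 to 57.3 CPM in controls and 237, 89.2 and 52.5 CPM in KPC, and Slc39a6 was lower (-0.64 ± 0.18). The zinc sensor gene Mtf1 lay at 24.2 to 27.6 and 20.4, 19.99 and 23.5 CPM. Of the 8 genes of this list, 4 were higher and 2 lower at an unadjusted p under 0.05. The Mt1 promoter (chr8:94178839-94179138, plus strand) is printed to show its matches to the metal response element, with matches to TGCNCNC in capitals, none of which overlap.
Mt1: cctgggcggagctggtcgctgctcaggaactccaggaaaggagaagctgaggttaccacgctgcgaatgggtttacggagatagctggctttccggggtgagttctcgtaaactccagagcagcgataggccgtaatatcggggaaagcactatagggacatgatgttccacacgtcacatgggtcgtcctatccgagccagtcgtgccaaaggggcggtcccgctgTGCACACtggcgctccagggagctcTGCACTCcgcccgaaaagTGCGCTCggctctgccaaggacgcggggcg
This short motif was found in all 6 list genes with a promoter in the table and in 51% of all 32851 promoters.

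Most clock genes were higher in KPC and the activator Arntl was lower. In the clock, Arntl and Clock drive the Per, Cry and Nr1d genes, which in turn repress them, while Dbp, Tef and Hlf carry the rhythm to output genes. Of 18 tested genes 12 (66.7%) were higher and 3 lower at an unadjusted p under 0.05, with a median of 1.39. Arntl, the activator, lay at 91.6, 89.3, 97.4 and 65.7 CPM in controls and 34.2, 49.3 and 49.8 CPM in KPC (-0.95 ± 0.20), lower in all 3 KPC libraries. Nr1d1, a repressor of Arntl, lay at 18.4, 59.97, 44.2 and 50.2 CPM and 191, 407 and 179.9 CPM (2.58 ± 0.43), and it shares exon sequence with Thra on the other strand. Per1 lay at 122, 200.2, 189.9 and 94.9 CPM and 389, 629 and 312 CPM (1.55 ± 0.33), and Per3 at 20.1 to 32.8 and 39.2, 77.6 and 52.2 CPM (1.22 ± 0.26). The output genes Dbp (1.73 ± 0.43), Tef (1.68 ± 0.30) and Hlf (1.65 ± 0.32) were higher without overlap. Controls were themselves spread for this list, with Nr1d2 at 9.98 to 34.9 CPM, and the hour of sampling is not given in the sources used here. One of the Per1 promoters in the table (chr11:69098699-69098998, plus strand) is printed to show the E-box CACGTG, in capitals, through which Arntl and Clock act.
Per1: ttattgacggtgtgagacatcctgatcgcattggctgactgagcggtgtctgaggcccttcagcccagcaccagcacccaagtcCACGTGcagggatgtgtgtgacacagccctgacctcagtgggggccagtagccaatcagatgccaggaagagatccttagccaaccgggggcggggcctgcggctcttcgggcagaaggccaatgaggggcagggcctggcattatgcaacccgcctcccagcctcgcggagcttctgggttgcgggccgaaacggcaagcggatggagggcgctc
An E-box of these letters was present in 5 of 16 clock genes with a promoter in the table (31.2%) and in 7.15% of all promoters.

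By unadjusted p, cholesterol synthesis was the list with the largest share of lower genes among the 32 lists, and the Dpp4/Pi16-type list described below had the larger share by genes below all controls and by falls in the code-227 fit. Of 25 tested genes, 19 (76.0%) were lower and 1 higher at an unadjusted p under 0.05, 17 lay below all controls in all 3 KPC libraries, and the median log2 fold change was -1.27. The medians by library were -1.26, -1.70 and -0.95 log2 units in KPC 1 to 3. Controls 1 to 4 were themselves spread for this list, at -0.12, -0.44, 0.05 and 0.45. DESeq2 called 18 of 25 lower, 15 of 24 fell in the code-227 fit, and 19 were lower at an unadjusted p under 0.05 without KPC 1.

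Along the pathway, Hmgcs1 (chromosome 13, 119690379 to 119708260), whose enzyme makes HMG-CoA, lay at 117, 78.5, 109 and 158 CPM in controls and 27.4, 23.0 and 38.7 CPM in KPC (-1.96 ± 0.28, edgeR adjusted p = 0.0592). Sqle, which commits squalene to sterols, lay at 35.2, 26.7, 55.8 and 66.6 CPM in controls and 8.36, 4.96 and 12.7 CPM in KPC (-2.41 ± 0.42). Both were lower in every KPC library than in any control. Later enzymes followed, with Cyp51 at -2.09 ± 0.36, Msmo1 at -2.25 ± 0.37 and Nsdhl at -1.49 ± 0.27. Srebf2, the gene of SREBP2, lay at 231, 223, 272 and 249.5 CPM in controls and 90.0, 86.0 and 179 CPM in KPC (-1.04 ± 0.27). Acat2 was the higher member (0.92 ± 0.37), at 6.20 to 11.3 CPM in controls and 21.2, 19.1 and 7.37 CPM in KPC. Lss and Tm7sf2 had unadjusted p of 0.45 and 0.666.

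The promoter of Hmgcs1 (chr13:119690101-119690400, plus strand) is shown because it holds a match to the sterol regulatory element, the site of SREBP2, as TCACNCCAC in capitals.
Hmgcs1: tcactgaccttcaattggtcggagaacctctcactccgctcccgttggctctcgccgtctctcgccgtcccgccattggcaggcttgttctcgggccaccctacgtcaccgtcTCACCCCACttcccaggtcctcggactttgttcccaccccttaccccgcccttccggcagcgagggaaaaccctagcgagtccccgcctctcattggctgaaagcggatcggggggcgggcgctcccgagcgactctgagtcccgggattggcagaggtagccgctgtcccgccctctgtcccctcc
Of 17 list genes with a promoter in the table Hmgcs1 alone held these letters (5.88%), against 1.24% of all promoters. Named after their values were seen, 3 genes of fatty acid synthesis, for which no list was made, lay at 147 to 202 and 125, 81.3 and 100.4 CPM (Fasn, -0.79 ± 0.19), 277 to 477 and 179, 106 and 173 CPM (Scd2, -1.19 ± 0.27) and at a fold change of -0.32 ± 0.14 (Scd1).

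**Figure D3:**
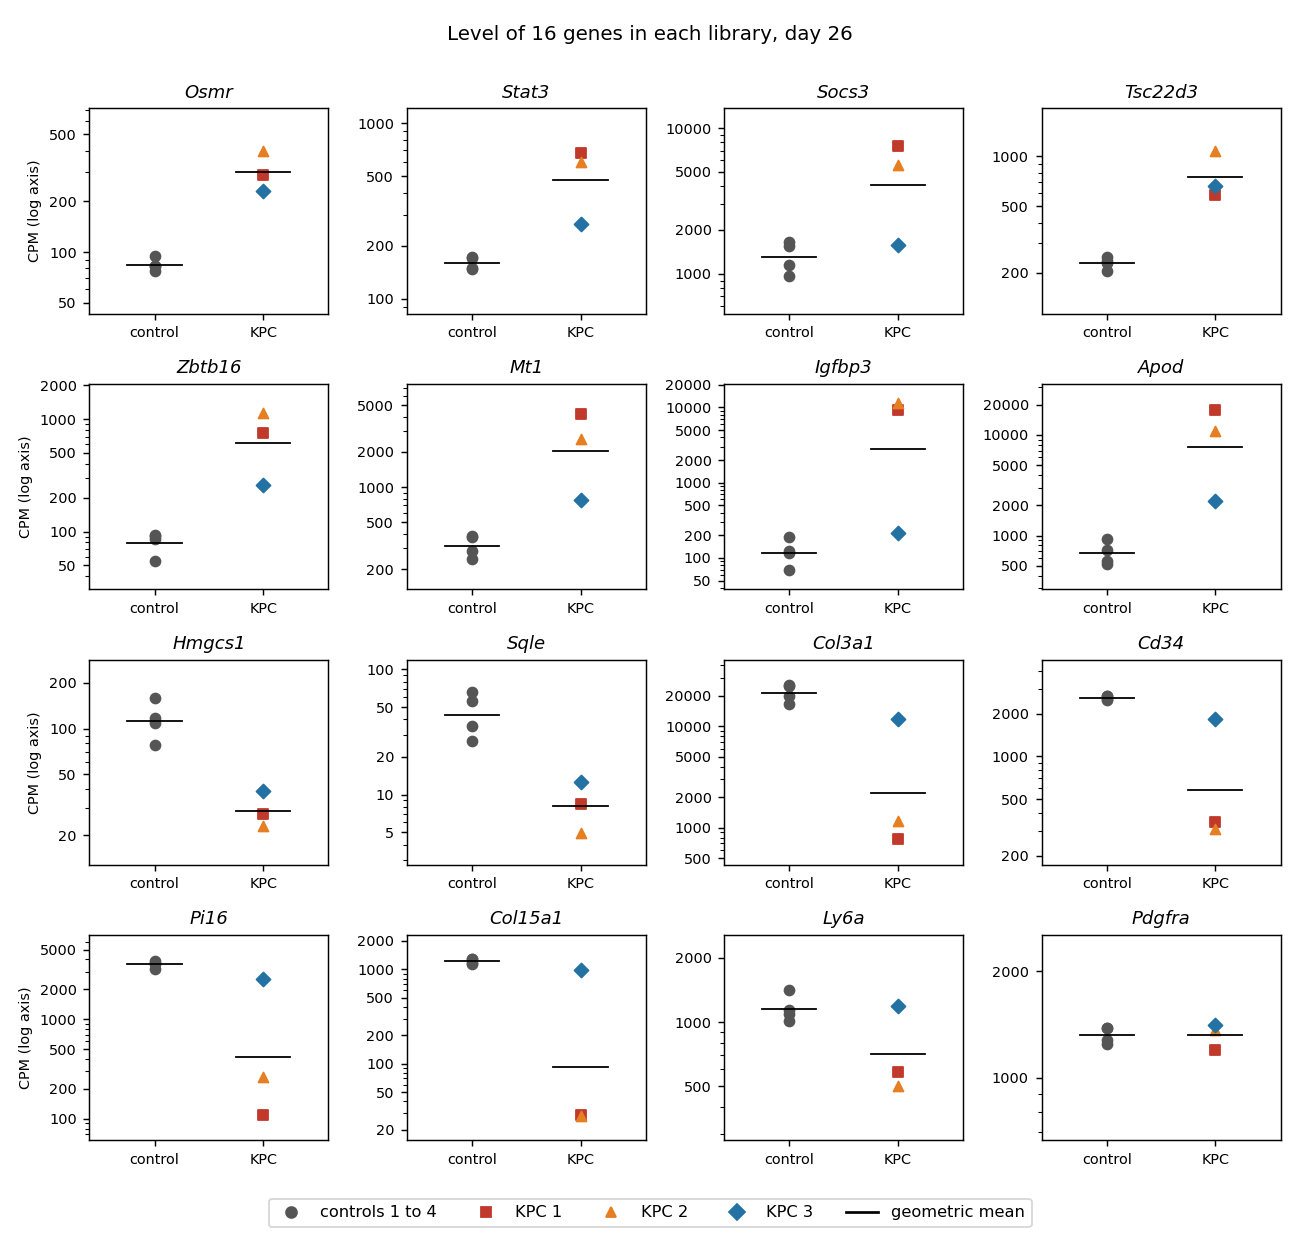
CPM (log axis) of 16 genes in each of the 7 libraries, 1 point per library, with the geometric mean of each group as a line. For Osmr, Tsc22d3, Hmgcs1 and Sqle all 3 KPC libraries lie clear of the controls. For Igfbp3, Col3a1, Cd34, Pi16 and Col15a1, KPC 1 and KPC 2 lie far from the controls and KPC 3 close to them.

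Most collagen genes lay far below the controls in KPC 1 and KPC 2 and slightly below them in KPC 3. Of 16 tested collagen genes, 6 (37.5%) were lower and 0 higher at an unadjusted p under 0.05, 9 lay below all controls in all 3 KPC libraries (56.2%, against 14.5% of all genes), and the median log2 fold change was -1.56. By library the medians were -3.31, -3.07 and -0.45 log2 units. In the code-227 fit 11 of 16 fell and 0 rose, against 22.8% and 24.3% of all genes. Tenocyte markers, of tendon cells that also make collagen, moved in the same order, with medians of -3.37, -2.41 and -0.33 over 8 genes, of which 5 fell and 1 rose in the code-227 fit. Their summed CPM, most of it from Thbs4, was 571, 1030.4 and 507 in KPC 1 to 3, against 416 to 524 in controls 1 to 3 and 1185 in control 4. Scx, a defining tendon gene, did not pass the filter on low counts, and the part of tendon cells in the collagen values was not tested. Col3a1, a fibril collagen, lay at 25342, 16531, 19910.5 and 24938 CPM in controls and 776, 1154 and 11887 CPM in KPC (-2.23 ± 0.94, edgeR adjusted p = 0.138). KPC 1 and KPC 2 were 27.9- and 18.8-fold below the control mean, and KPC 3 1.82-fold. In the code-227 fit Col3a1 changed by -4.41 ± 0.34 on the log2 scale (edgeR, adjusted p = 0.000243). Col1a1 lay at 10549, 6476, 8438 and 8804 CPM and 349, 558 and 5864 CPM (-1.92 ± 0.93), and Col6a2, of the collagen that surrounds muscle fibres, at 3905 to 5010.3 and 391, 297 and 3000.4 CPM (-1.89 ± 0.79). The type IV chains of basement membrane, Col4a1 and Col4a2, lay near the controls. Col4a1 lay at 3121 to 4348 CPM in controls and 3211, 3862 and 4264 CPM in KPC (0.08 ± 0.25), and Col4a2 had a fold change of 0.18 ± 0.21. In these bulk libraries, fewer cells of a type and less RNA per cell cannot be told apart.

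Glycoproteins of the matrix leaned lower, and few were higher. Of 24 tested, 8 (33.3%) were lower and 2 (8.33%) higher at an unadjusted p under 0.05, against 13.9% and 20.3% of all genes. Without KPC 1, 6 were lower and 2 higher, against 8.28% and 15.3%. Sparc, a collagen-binding protein, lay at 9416, 5649, 7402 and 7677 CPM in controls and 922, 1005 and 3976 CPM in KPC (-1.94 ± 0.57), and fibronectin, Fn1, at 7918 to 9328 and 681, 954 and 7259.9 CPM (-1.58 ± 0.79). The thrombospondin genes Thbs1 and Thbs2 went the other way. Thbs1 lay at 175, 179, 176 and 173 CPM in controls and 4528, 3300.0 and 421 CPM in KPC (3.97 ± 0.67, edgeR adjusted p = 0.0592). Thbs2 lay at 300.3 to 469 and 1478, 1802 and 545 CPM (1.74 ± 0.38). For both genes all 3 KPC libraries lay above the controls, and they were the only 2 of the 24 genes for which this held. The list also holds the thrombospondin gene Thbs4. Among 24 matrix enzymes and inhibitors, 10 (41.7%) were lower and 3 (12.5%) higher. Without KPC 1, only 2 were lower and 2 higher. Lox, which cross-links collagen, lay at 157, 165, 116 and 198 CPM in controls and 1485, 2096 and 244 CPM in KPC (3.00 ± 0.61), while its relatives Loxl1 (-1.03 ± 0.34) and Loxl2 (-1.89 ± 0.58) were lower. Serpinh1, the collagen chaperone gene, lay at 1512 to 2165 and 318, 231 and 1249 CPM (-1.66 ± 0.57), and Has2, a hyaluronan synthase gene, at 82.7 to 112 and 10.1, 10.1 and 64.9 CPM (-1.77 ± 0.65).

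The Dpp4/Pi16-type state showed the same order of libraries. Of its 16 genes, 14 lay below all controls in every KPC library against 14.5% of all genes, 8 were lower at an unadjusted p under 0.05, and the median was -1.65, with -2.65, -2.64 and -0.48 in KPC 1 to 3. In the code-227 fit 15 of 16 fell, against 22.8% of all genes. Pi16, the gene of a secreted peptidase inhibitor, lay at 3877, 3691, 3556 and 3169 CPM in controls and 109, 262 and 2539.5 CPM in KPC (-1.88 ± 0.95, edgeR adjusted p = 0.19), and in the code-227 fit it changed by -4.32 ± 0.41 (adjusted p = 0.000542). Cd248 lay at 1464 to 1709.8 and 60.7, 54.1 and 977 CPM, and Igfbp5 at 2769 to 3287 and 276, 239 and 1987 CPM (-1.87 ± 0.74). For these genes KPC 3 was slightly below the controls and the other KPC libraries far below. In Wnt2, the gene of a signalling ligand, KPC 3 lay as low as KPC 1, at 6.19, 2.53 and 7.32 CPM in KPC 1 to 3 against 21.3, 19.96, 15.01 and 34.9 CPM in controls (-2.09 ± 0.42).

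The Cxcl14/Smoc2-type list did not move as a block. 8 of 16 genes were higher and 0 lower at an unadjusted p under 0.05, with a median of 0.44, but 5 fell and 8 rose in the code-227 fit. Apod, the gene of the lipid carrier apolipoprotein D, lay at 557, 721, 525 and 916 CPM in controls and 17889, 10891 and 2186 CPM in KPC (3.92 ± 0.65, edgeR adjusted p = 0.0592). Cxcl14 itself lay at 1012 to 1571 CPM in controls and 1795, 1779 and 2193 CPM in KPC (0.64 ± 0.23), highest in KPC 3, and Lpl, the gene of lipoprotein lipase, at 792 to 896 and 1682, 1586 and 1054 CPM (0.79 ± 0.22). Col15a1, a collagen of this state, lay at 1279, 1161, 1279.9 and 1147 CPM and 28.6, 27.8 and 975 CPM (-1.82 ± 1.16). Smoc2 lay at 2351 to 2826 and 1312, 1702 and 3078 CPM (-0.33 ± 0.32), and Lum, the gene of lumican, at 712 to 1105 and 90.8, 214 and 837 CPM (-1.20 ± 0.66). KPC 3 overlapped the controls for Lum, and it lay above them for Smoc2.

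Among 14 genes of progenitor identity, 2 were lower and 0 higher at an unadjusted p under 0.05, with a median of -0.47. The share lower, 14.3%, is close to the 13.9% of all genes, while in the code-227 fit 8 of 14 fell and 0 rose, against 22.8% and 24.3% of all genes. Cd34, a surface protein of progenitors, lay at 2677, 2494, 2558 and 2655 CPM in controls and 345, 309 and 1825 CPM in KPC (-1.65 ± 0.63), and in the code-227 fit it changed by -2.97 ± 0.17 (adjusted p = 0.000131). Thy1 lay at 659, 502, 638 and 834 CPM in controls and 11.1, 19.4 and 361 CPM in KPC (-2.33 ± 1.10, edgeR adjusted p = 0.169), with -5.30 ± 0.31 in the code-227 fit (adjusted p = 0.000135). Both genes fell in KPC 1 and KPC 2 and were less far below the controls in KPC 3. Hic1, a transcription factor gene of quiescent mesenchymal progenitors, lay at 164 to 295 and 88.9, 101 and 173 CPM (-0.93 ± 0.30). In contrast Dcn, the gene of decorin, lay at 11242 to 14904 CPM in controls and 14939, 21202 and 15087 CPM in KPC (0.37 ± 0.32, edgeR adjusted p = 0.407), and Pdgfrb at 396 to 531 and 420.3, 432 and 389 CPM. FAP genes were therefore present in every KPC library, with Pdgfra and Dcn at or above 1196 and 14939 CPM.

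Igfbp3 had the largest rise in the code-227 fit at a mean log2 CPM of at least 3. Igfbp3 (chromosome 11, 7206086 to 7213923), whose product binds insulin-like growth factors, lay at 124, 191, 116 and 69.0 CPM in controls and 9271, 11419.6 and 215 CPM in KPC (5.80 ± 1.11, edgeR adjusted p = 0.0592). KPC 1 and KPC 2 were 74.2- and 91.4-fold the control mean and KPC 3 1.72-fold, so the size of this difference rests on KPC 1 and KPC 2. Igf1 lay at 272, 209.6, 271 and 192 CPM in controls and 74.5, 81.9 and 139 CPM in KPC (-1.26 ± 0.26), lower in all 3, and its receptor gene Igf1r at 48.9 to 79.4 and 169, 207 and 101 CPM (1.22 ± 0.26), higher in all 3. Over the 18 IGF and trophic factor genes, 3 were higher and 3 lower (16.7% each way, against 20.3% and 13.9% of all genes), with a median of -0.27.

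In the activin and BMP axis 8 of 22 genes were higher and 4 lower at an unadjusted p under 0.05, around a median of 0.04. The activin receptor genes Acvr1b (12.7 to 15.8 CPM in controls, 56.0, 51.5 and 27.3 CPM in KPC, 1.63 ± 0.24) and Acvr2b (2.11 ± 0.45) and the activin subunit gene Inhbb (23.4 to 34.7 and 113, 117 and 51.1 CPM, 1.68 ± 0.29) were higher without overlap. Bmp4 lay at 71.2 to 103 and 169, 479 and 153 CPM (1.58 ± 0.39), and Bmp7 at 38.3 to 43.4 and 1.95, 4.79 and 21.1 CPM (-2.15 ± 0.68), so the ligands differed in direction. Ctgf, the gene of a matrix-associated growth regulator, lay at 217 to 403 and 1332, 1864 and 508 CPM (1.89 ± 0.42), and the inhibitory Smad7 had a fold change of 1.54 ± 0.30. Of 23 TGF-beta and myofibroblast genes, 5 (21.7%) were higher and 1 lower, with a median of 0.13, and the share higher is close to the 20.3% of all genes. The myofibroblast genes Acta2 (6.03 to 15.7 and 95.3, 10.9 and 9.23 CPM) and Tagln (5.24 to 11.3 and 79.6, 9.46 and 8.78 CPM) were high in KPC 1 only, as the mural markers were, and the part of mural cells was not tested. Of 17 Wnt genes, 7 were lower and 2 higher, among them Wnt5a (76.3 to 115 CPM in controls, 22.1, 28.3 and 63.0 CPM in KPC, -1.33 ± 0.36) and the inhibitor gene Sfrp2 (-1.72 ± 0.48).

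Immediate-early genes, which cells switch on within minutes of a stimulus, were mostly higher. Of 26 immediate-early genes 15 (57.7%) were higher and 0 lower at an unadjusted p under 0.05, with a median of 1.06 and library medians of 1.43, 1.03 and 0.42. Nr4a1, an orphan nuclear receptor gene, lay at 423, 629.8, 319.9 and 495 CPM in controls and 1632, 2134 and 969 CPM in KPC (1.76 ± 0.33), and Zfp36, whose product degrades cytokine mRNA, at 2614, 2500.0, 1522 and 1423 and 7977, 8423 and 3108 CPM (1.69 ± 0.42). The AP-1 genes Fos and Jun lay at 2011 to 2822 and 1883 to 2607 CPM in controls and at 3086, 3952 and 4085 and 2473, 3675 and 3135 CPM in KPC.

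Autophagy and FoxO genes, which drive protein breakdown in wasting muscle, were mostly higher in KPC 1 and KPC 2, and the list median of KPC 3 was close to the controls. Of the list, 15 of 23 genes (65.2%) were higher and 1 lower, with library medians of 1.20, 1.356 and 0.01, and 16 rose and 2 fell in the code-227 fit. Above all controls in every KPC library lay 8 (34.8%) and below them 2 (8.7%), against 14.5% of all genes each way. With KPC 1 left out, 13 were higher and 1 lower at an unadjusted p under 0.05, against 15.3% and 8.28% of all genes. Bnip3, a mitophagy gene, lay at 11.3, 12.3, 11.02 and 13.8 CPM and 115, 153 and 21.2 CPM (2.99 ± 0.55), the ubiquitin ligase gene Fbxo32 (atrogin-1) at 9.54 to 13.3 and 41.4, 81.0 and 20.4 CPM (2.02 ± 0.40), and Foxo3 at 23.4 to 43.7 and 109, 149 and 50.6 CPM (1.56 ± 0.35). Among p53 and senescence genes 10 of 18 were higher and 2 lower, including the cell cycle inhibitor gene Cdkn1a (133 to 181 and 649, 599 and 196 CPM, 1.58 ± 0.37). Gadd45b lay at 54.1 to 121 and 435, 607 and 96.1 CPM. Chaperones of the endoplasmic reticulum leaned lower. Of 23 ER and stress genes 10 were lower and 5 higher, with Hsp90b1 at 888 to 1074 CPM in controls and 420.2, 281 and 771 CPM in KPC (-0.99 ± 0.33) and Pdia4 at -1.19 ± 0.44, and the stress factor gene Atf4 at 367 to 378 and 787, 775 and 349.6 CPM (0.78 ± 0.28).

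Ribosome biogenesis genes leaned higher, with 11 of 22 at an unadjusted p under 0.05 (1 lower) and Gnl3, a nucleolar gene, at 27.3 to 32.2 CPM in controls and 94.0, 87.1 and 36.1 CPM in KPC (1.25 ± 0.30). Of 28 ribosomal protein genes 6 (21.4%) were higher at an unadjusted p under 0.05, close to the 20.3% of all genes, with a median of 0.36. None lay above all controls in every KPC library, and 0 were higher without KPC 1 and 0 by DESeq2. In the code-227 fit 25 rose, against 24.3% of all genes, and KPC 1 and KPC 2 had medians of 0.58 and 0.43 and KPC 3, outside that fit, 0.02. Ribosomal protein genes have near-identical copies, so their counts are uncertain.

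Lipid-handling genes differed in both directions. Of 21 adipogenic and lipid genes 12 were higher and 5 lower, with a median of 1.01. Pnpla2, the gene of the triglyceride lipase ATGL, lay at 29.8 to 37.8 CPM in controls and 448, 362 and 40.8 CPM in KPC (3.08 ± 0.64), and Plin4, a lipid droplet gene, at 1.16 to 3.27 and 73.1, 23.3 and 9.23 CPM (3.98 ± 0.68). Fabp4, a fatty acid carrier gene of fat cells and endothelium, lay at 30.2, 39.5, 12.5 and 14.6 CPM and 336, 47.9 and 22.8 CPM, and Cd36 at 5.84 to 16.9 and 248, 33.1 and 17.3 CPM, both led by KPC 1, the library with Adipoq, Cfd and endothelial counts. Zfp423, a gene of fat cell commitment, lay at 49.4 to 76.4 and 7.36, 7.60 and 47.5 CPM (-1.57 ± 0.65). The part of fat cells in these values was not tested.

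Inflammatory lists beyond the IL-6 family gave mixed results. Of 21 NF-kappaB genes 9 were higher and 1 lower, against 4 and 0 without KPC 1. Icam1 lay at 56.7 to 105 CPM in controls and 500.0, 178 and 116 CPM in KPC (1.81 ± 0.47), and Il1b, which macrophages make, at 0.0387 to 0.594 and 62.5, 2.76 and 0.502 CPM. The chemokine gene Cxcl13 lay at 38.8 to 71.3 and 672, 381 and 45.3 CPM (2.90 ± 0.71), and Cxcl12, which holds progenitors and leukocytes in place, at 239.6 to 279 and 489, 412 and 386 CPM (0.72 ± 0.16). Of 14 chemokine genes 5 were higher and 1 lower. Of 16 complement genes 7 were higher and 1 lower, and without KPC 1 5 were higher. C4b lay at 387, 353, 318 and 885 CPM in controls and 1810.0, 1829 and 1534 CPM in KPC (1.83 ± 0.38), similar in the 3 KPC libraries, and Masp1 at 0.356 to 1.27 and 25.2, 11.04 and 2.41 CPM (3.88 ± 0.75), while C3 lay at 7556 to 14781 and 3104, 4046 and 12931 CPM (-0.61 ± 0.54). C4b has a near-identical copy, so its reads may be split. Of 28 interferon genes 8 (28.6%) were lower and 2 higher at an unadjusted p under 0.05, against 13.9% and 20.3% of all genes, with a median of -0.21. Below all controls in every KPC library lay 4 (14.3%, against 14.5% of all genes). Without KPC 1, 3 were lower and 2 higher, against 8.28% and 15.3% of all genes. In the code-227 fit 11 of 28 fell and 3 rose, against 22.8% and 24.3% of all genes. The library medians were -0.50, -0.49 and -0.08 in KPC 1 to 3. How far the list lay from the background thus differed between these counts. B2m, of the class I complex, lay at 502 to 659 and 350.0, 349.8 and 456 CPM (-0.56 ± 0.19).

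Other lists had median log2 fold changes from -0.15 to 0.07, and their shares lay at varying distances from the background of 20.3% higher and 13.9% lower. Heat-shock chaperones had 2 higher and 2 lower of 20 (median 0.07), with Hsp90ab1 at 1414 to 1658 CPM in controls and 1549, 1520.3 and 1412 CPM in KPC. Glycolysis and hypoxia genes had 6 higher and 1 lower of 23 (median 0.06). Without KPC 1, 3 of them were higher and 5 lower, against 15.3% and 8.28% of all genes. Fasting and fatty acid oxidation genes had 3 and 5 of 19 (26.3% lower, median -0.06). Cell cycle genes had 6 higher and 5 lower of 22 (27.3% and 22.7%, median -0.15). Below all controls in every KPC library lay 6 of them (27.3%, against 14.5% of all genes), and 2 lay above. Without KPC 1, 5 were lower and 4 higher at an unadjusted p under 0.05, against 8.28% and 15.3% of all genes. Fewer genes than in the background were higher among 26 oxidative phosphorylation subunits (0 higher, 5 lower, median -0.12) and 22 proteasome genes (2 and 0, median -0.13). Of the oxidative phosphorylation genes 6 lay below all controls in every KPC library (23.1%, against 14.5% of all genes). With KPC 1 left out, 7 of the 26 were lower and 0 higher, against 8.28% and 15.3% of all genes.

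**Figure D4:**
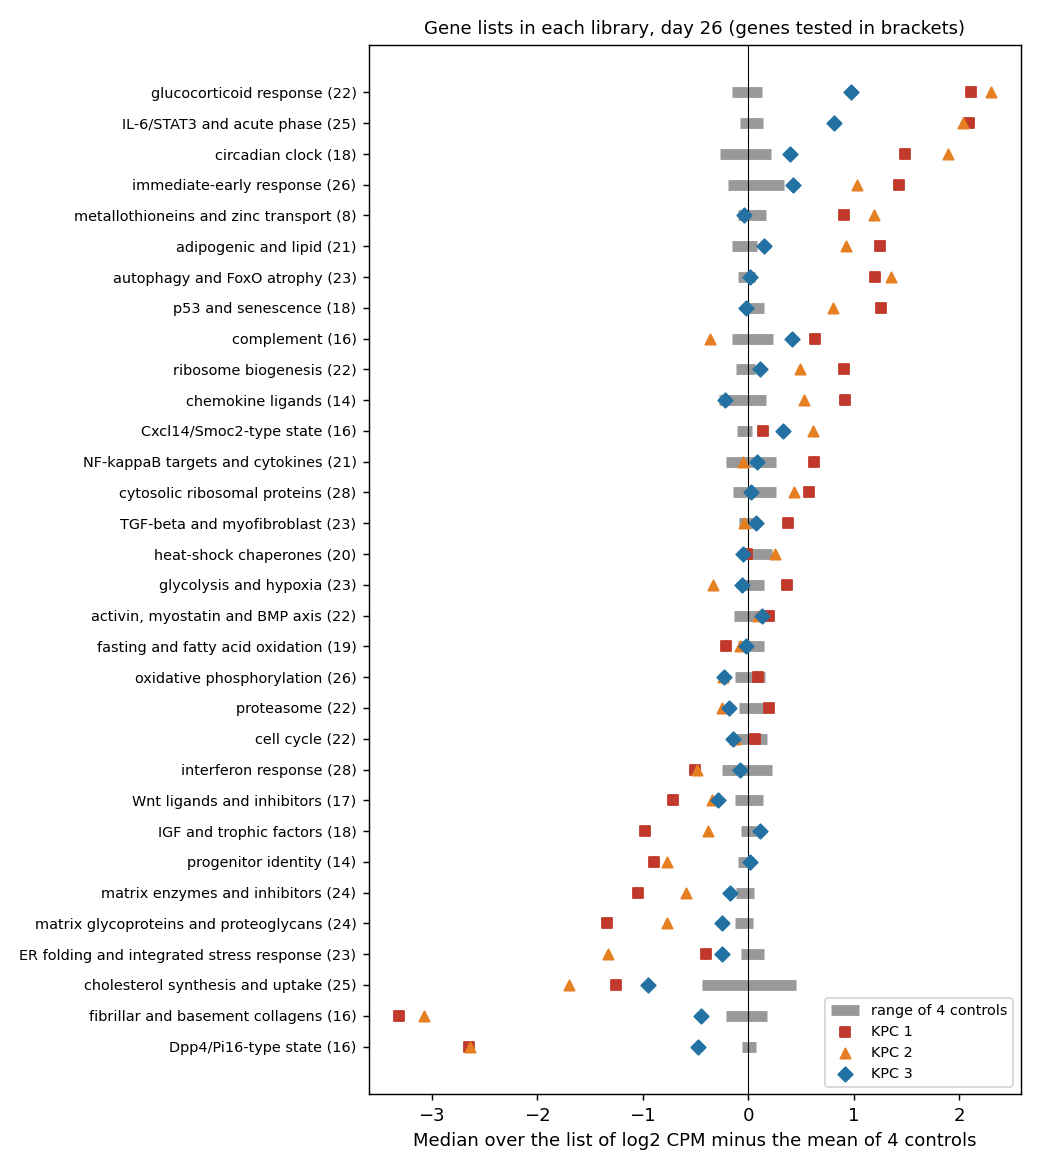
Median over each of 32 gene lists of log2 CPM minus the mean of the 4 controls, for KPC 1, KPC 2 and KPC 3, with the range of the 4 controls as a grey bar. Glucocorticoid and IL-6/STAT3 lists lie above the bar and cholesterol, collagen and Dpp4/Pi16 lists below it in all 3 KPC libraries, with KPC 3 nearest to the controls.

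The KPC libraries differed from each other more than the controls did. At a mean log2 CPM of at least 4 (7586 genes) the median range of log2 CPM was 0.617 among the 3 KPC libraries and 0.294 among the 4 controls. KPC 3 was the farthest KPC library for 53.6% of these genes, KPC 2 for 24.99% and KPC 1 for 21.4%. The widest ranges among KPC libraries were in Zcchc5, Stmn4, Igfbp3, Fam167a, Comp and Col15a1. Stmn4, a microtubule gene, lay at 129.9, 122, 154 and 113 CPM in controls and 0.724, 1.75 and 73.3 CPM in KPC, and Fam167a at 136, 169.6, 173 and 100.4 and 2.56, 0.845 and 72.8 CPM. Comp, the gene of a cartilage and tendon matrix protein, lay at 54.3, 53.9, 50.4 and 96.0 and 2.51, 12.2 and 104 CPM. In all 6, KPC 3 lay closer to the control mean than KPC 1 and KPC 2 did.

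In the code-227 fit, the largest rises at a mean log2 CPM of at least 3 were in Igfbp3 (6.18), Trp53inp1 (4.80), Apod (4.59), Galnt15 (4.54), Thbs1 (4.48), Mmp11 (4.43), Lppr3 (4.42) and Pfkfb3 (4.29). Trp53inp1, a p53-induced autophagy gene, lay at 21.1, 18.0, 13.2 and 16.4 CPM in controls and 347, 617 and 27.5 CPM in KPC, and Pfkfb3, which drives glycolysis, at 10.3, 17.5, 13.3 and 10.7 and 301, 233 and 16.6 CPM. Mmp11, a stromal protease gene that shares exons with Chchd10, lay at 38.0 to 39.8 and 787, 916 and 72.0 CPM. All but Pfkfb3 were also higher in KPC 3 than in any control. The largest falls were in Adamts16, Xpnpep2, Stmn4, Fam167a, Spon2, Zcchc5, Col15a1 and Thy1. Adamts16, a matrix protease gene, had 49.7 to 108 CPM in controls and 0, 0 and 47.4 CPM in KPC, with 0 counts in KPC 1 and KPC 2, which allows up to 3 counts in each. Spon2 lay at 137, 57.3, 126 and 137 and 1.73, 1.86 and 36.2 CPM. KPC 3 also lay below every control for these 8 genes, by small margins for Adamts16 and Col15a1.

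KPC 3 and control 4 share no library with the code-227 fit, so the calls of that fit could be looked up in them. Of 3092 genes that rose there and were tested in all 7 libraries, 71.4% were higher in KPC 3 than in control 4, against 50.2% of all genes, and their median difference was 0.23 log2 units, against a median rise of 0.92 in the code-227 fit. Of 3032 genes that fell, 67.1% were lower in KPC 3 than in control 4, against 49.8% of all genes, with a median of -0.16 against -1.09. These are 2 single libraries with different code numbers, so the values have no test.

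**Figure D5:**
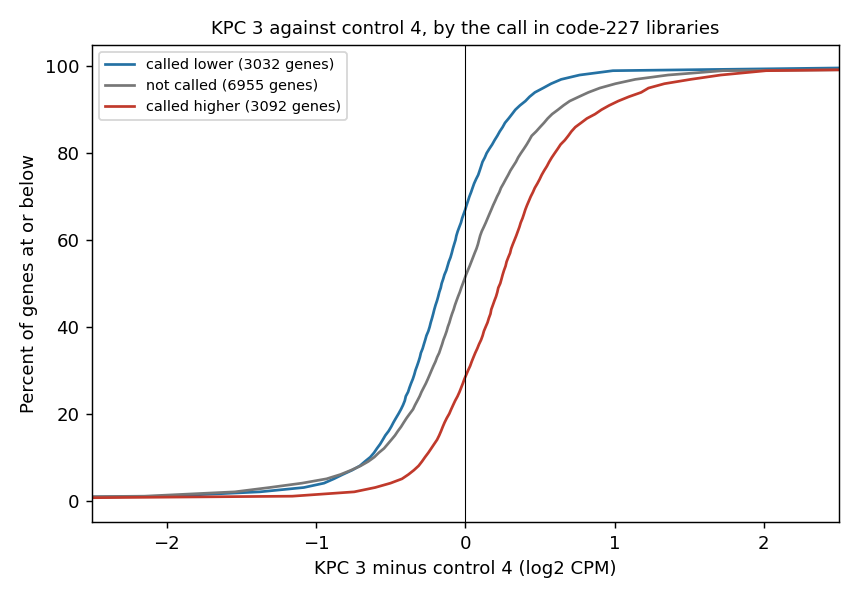
Share of genes (percent, vertical axis) at or below each difference between KPC 3 and control 4 (log2 CPM, horizontal axis), for genes that rose (3092), fell (3032) or were not called (6955) in the code-227 libraries. The curve of genes that rose lies to the right, with a median of 0.23, and that of genes that fell to the left, with a median of -0.16.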

How the data were processed

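Total mRNA of sorted hindlimb FAPs was sequenced on an Illumina NextSeq after Illumina Stranded mRNA preparation, per the labels' protocols. The submitters' processing notes name mm10, STAR, Bowtie, bcl2fastq 2.20, R 4.2.1 and DESeq2 1.36.0. The counting tool, like the strand setting and the annotation, is not given in the sources used here, so reads of overlapping genes may be shared. The authors deposited raw counts per gene symbol (24421 symbols at day 26), used as deposited. Library totals of 16.8 to 25.7 megacounts make counting error small for all but the weakest genes.

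Genes passing filterByExpr (minimum count 10, minimum total 15) were scaled by TMM and tested with edgeR 4.0.16 (robust quasi-likelihood F test, Benjamini-Hochberg adjustment, threshold 0.05), KPC against control, in R 4.3.3. Only the day 26 table entered. The procedure was tested on simulated data with the spread of the controls and the same change in every KPC library. That test does not cover KPC libraries that differ as these do. CPM use TMM scaling, and log2 CPM a prior count of 2. DESeq2 1.42.0, limma 3.58.1, other scalings, filters, libraries left out, the code-227 libraries, all 20 libraries and a replicate block were alternatives. The without-KPC 1 and DESeq2 counts per list and the lookup in KPC 3 and control 4 were added after seeing the data. The gene lists and the comparison were chosen with earlier results of these data known. Rules named 92 genes: 8 higher and 8 lower with the smallest p, the smallest-p and highest-level member of each of 32 lists, 5 sort genes, 6 with the widest KPC range, and the 8 largest rises and falls in the code-227 fit. Genes named beyond these were named after their values were seen. Not every gene so named is reported here. Gene positions and shared exons are from the GENCODE annotation of mm10. Promoters (250 bases before to 50 after the start) are from RefSeq, GRCm38.p6, whose gene starts can differ from those of GENCODE.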

Additional observations from a re-analysis of the deposited data

Results flagged for a closer look

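In 3 of 135 checks on the 4 controls, a single control stood apart from the other controls, where chance gives about 1 in 20. Comp, the gene of a tendon matrix protein, was at 96.0 CPM in control 4 and 50.4 to 54.3 CPM in the others, a gap of 0.883 of the range. Spon2, the gene of a secreted matrix protein, was at 57.3 CPM in control 2 and 126 to 137 CPM in the others, a gap of 0.9 of the range. The mean log2 CPM of the myofibre markers was highest in control 2, with a gap of 0.906 of the range.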

How the results depend on the processing

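The count of called genes rested on KPC 3 and on the tool. It was 0 in edgeR with all 7 libraries, and also with RLE scaling, library size alone, a non-robust fit, no filter, a 1 CPM filter, limma-voom, and each single library other than KPC 3 left out. It was 6972 (3472 higher, 3500 lower) without KPC 3, 6287 (3245 and 3042) in the code-227 libraries, 4889 (2691 and 2198) with all 20 libraries, 4519 (2329 and 2190) with quality weights and 2709 (1760 and 949) by DESeq2. Leaving out 1 library gave 0 to 6972 calls (0 to 3472 higher, 0 to 3500 lower), 2928 to 7854 genes at an unadjusted p under 0.05 and 4122 to 8427 without overlap. The unadjusted count was 7415 in the code-227 libraries, where 9012 genes did not overlap. Leaving out KPC 3 selects on the outcome.

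Replicate numbers did not pair the libraries. For this check the mean of each group was subtracted from log2 CPM, gene by gene, and the deviations were correlated. Same-numbered libraries then had correlations of 0.066, 0.055 and 0.183, and control 2 correlated with KPC 1 at 0.175. These values are not comparable with the correlations of log2 CPM itself given in the Results. With the replicate block, 0 genes were called and 3124 had an unadjusted p under 0.05.

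Among the 92 genes named by rule, directions changed only for 3 genes with fold changes near 0 and for Ptprc. Atp5b was at -0.026 and became 0.022 with library size alone, 0.12 in the code-227 libraries, 0.041 with quality weights and 0.0091 with the replicate block, and leaving out 1 library gave -0.21 to 0.066. Hsp90ab1 (-0.039) became 0.0030 with quality weights and lay from -0.076 to 0.00091 with 1 library left out. Pdgfra (0.0032) became -0.052 in the code-227 libraries, -0.050 with quality weights, -0.0023 with limma-voom, -0.026 with no filter and -0.013 with the block, and lay from -0.057 to 0.077 with 1 library left out. Ptprc (2.06) lay from -0.67 without KPC 1 to 2.62 without KPC 2. Some list medians changed sign too. Without KPC 1, endothelial markers went from 2.01 to -0.22 and mural markers from 1.18 to -0.27. Glycolysis and hypoxia genes went from 0.06 to -0.24, and TGF-beta and myofibroblast genes from 0.13 to -0.002. The cause was not tested.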

Other observations

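Among genes under the filter on low counts, several had counts almost only in KPC 1. Osm, the gene of the ligand of Osmr, had 88 counts in KPC 1, 4 in KPC 2 and 0 in KPC 3. Krt18 had 64, 8 and 1 counts, and Cldn4, a tight junction gene, 41, 5 and 0. Myod1, a gene of muscle stem cells, had 42, 0 and 2 counts.

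Of 8 erythroid markers, only Alas2 and Ermap passed the filter, and both were highest in KPC 1 and KPC 2. Their summed CPM was 36.8 in KPC 1, 24.05 in KPC 2 and 3.76 in KPC 3, against 0.774 to 2.38 in controls. The haemoglobin genes Hba-a1, Hba-a2, Hbb-bs and Hbb-bt are listed at 0 in all 7 libraries. Slc4a1 had 34, 13 and 1 counts in KPC 1 to 3.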
